A study of Arabidopsis thaliana with 41 samples.

Results

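The comparison concerns 4 natural lines of Arabidopsis thaliana from Sweden: Eden-1 and Bil-5, collected in the north, and Omo2-3 and Ull2-5, collected in the south. It takes every array carrying one of these 4 accession labels, 24 of the 41 arrays of the series, with 6 arrays per accession and 12 per region. RNA came from rosette leaves of plants grown 1 to a pot in ceramic rooting medium under a 10-h photoperiod. In each accession 3 arrays are from wet pots, held near 90% of the water the pot can hold, and 3 are from dry pots, let down slowly to about 50%. The series' design text calls the 3 arrays of a group biological replicates. No transgene, mutation or cold treatment is given for any of these groups, and each accession stands for itself alone: 2 accessions are all that represent a region. Values are log2 signals for 21164 loci, so that a difference of 1 is a 2-fold difference. A locus is called separated here where both northern accession means lie on one side of both southern means, and the gap is the distance between the nearest northern and southern means. The loci of interest are the 785 that were separated and also differed between the regions at an adjusted p below 0.05.

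Accessions of a species are inbred descendants of plants taken from wild stands, and they differ from one another at a great many sites in the genome. Northern Swedish Arabidopsis grows under long winters and is known for a strong need for cold before flowering, which depends on the repressor FLC. Cold hardening runs through the CBF transcription factors, which switch on COR genes that protect membranes and proteins during freezing. Leaf defence against pathogens that feed on living cells runs through salicylic acid and ends in the PR proteins. Accessions differ in both systems, as they do in receptors that detect pathogens.

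The arrays were alike in level, with medians from 5.66 to 5.79, and an array's mean correlation with the other arrays of its group ran from 0.951 to 0.991. The lowest of these, and the lowest quality weight of limma, 0.262, belong to Bil-5 dry replicate 3. Bil-5 wet replicate 2 had the next lowest weight, 0.342. Bil-5 arrays also differed more among themselves: 116 loci had a step of at least 2 log2 units somewhere in the order of the 6 Bil-5 values, against 20 in Eden-1, 23 in Omo2-3 and 23 in Ull2-5. Among examples picked after the values were seen, AT2G25510 read between 11.09 and 13.16 on 5 Bil-5 arrays and 4.61 on dry replicate 3. That low value lies in the range of the Eden-1 arrays, 4.11 to 5.11, and of the Omo2-3 arrays, 4.14 to 4.73, while Ull2-5 lies between 12.56 and 13.17. AT5G38980 was between 10.28 and 11.37 on 5 Bil-5 arrays and 4.29 on wet replicate 1, where only Omo2-3 is low as well, at 4.11 to 5.37. What sets these Bil-5 arrays apart was not tested, nor was whether all 6 hold RNA of 1 genotype, so the Bil-5 means below describe the arrays so labelled. The main counts, the 30 loci of largest gap and examples of the list genes whose call moved are also given without the 2 arrays of lowest weight.

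Between regions, 678 loci were higher in the northern accessions (3.2% of those tested) and 498 were higher in the southern accessions (2.35%), by limma's moderated test with 1 mean per accession and soil water as a covariate. Of these 1176 loci, 785 were separated, 451 with the northern accessions higher (2.13%) and 334 with the southern accessions higher (1.58%). The median absolute difference of the 785 was 0.43, and it reached 1 log2 unit in 22 loci with the northern accessions higher and 18 with the southern accessions higher. Another 391 called loci had accession means in another order. Separation without regard to a test was common: both northern means lay above both southern means in 2464 loci (11.6%) and below them in 4024 (19%). Together these are 30.7% of loci, where 4 means in arbitrary order would be separated in a share of 0.333. Separation alone is thus no sign of a regional pattern. At the edge of the threshold, AT3G15420 stood just inside with an adjusted p of 0.0499 and a difference of 0.17, and AT1G31240 just outside with 0.05004 and -0.145. The count was sensitive to Bil-5: without its 2 arrays of lowest weight 2031 loci were separated and called, 1013 higher in the north and 1018 in the south, and these include 735 of the 785 in the same direction. Leaving out Bil-5 dry replicate 3 alone gave 1195, and no other single array moved the count by more than 1.5 times. Wet arrays alone gave 61 separated and called loci and dry arrays alone 495, from the same number of arrays. Why these 2 counts differ was not tested.

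These tests weigh the spread between arrays of an accession and speak of these 4 accessions. With the accession as the unit, where the difference between the 2 accessions of a region is the error, limma called 0 of 21164 loci (0%), with a smallest adjusted p of 0.999 and 676 loci under an unadjusted p of 0.05, 269 of them among the 785. An exact permutation test over 4 accessions cannot give a two-sided p under 0.333 for any locus. A region with no accession term in the fit gave 318 separated and called loci, all of which are among the 785. Accession as a random block, with an estimated correlation of 0.16, left 3 loci: ChiC (adjusted p = 0.0458), AT5G63020 (adjusted p = 4.88e-04) and AT1G09910 (adjusted p = 0.0467). That fit shares 1 correlation over all loci and counts arrays, so it is not a test with the accession as the unit.

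The counts of called loci between accessions did not follow the regions. Within the north, 1776 loci were higher in Eden-1 than in Bil-5 (8.39%) and 1404 higher in Bil-5 (6.63%). Within the south, 628 were higher in Omo2-3 than in Ull2-5 (2.97%) and 1083 higher in Ull2-5 (5.12%). Eden-1 differed from Omo2-3 in 3588 loci and from Ull2-5 in 2064. The smallest count of the 6 pairs was between regions, 354 loci for Bil-5 against Omo2-3, and it stayed the smallest with each of the 24 arrays left out in turn. It moved by over 1.5 times without Omo2-3 dry replicate 1, 2 or 3 (135, 114 and 141), Omo2-3 wet replicate 1 (205), Bil-5 dry replicate 1 or 2 (221 and 150) and Bil-5 wet replicate 2 (619). Without the 2 Bil-5 arrays it became 1659, and the smallest count, 1222 for Bil-5 against Ull2-5, was again between regions, beside 2568 for the northern pair and 2202 for the southern pair. Over all loci the 2 northern means lay outside both southern means in 19.1%, the southern means lay outside both northern means in 15.5%, the regions interleaved in 34.7% and were separated in 30.7%.

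**Figure D1:**
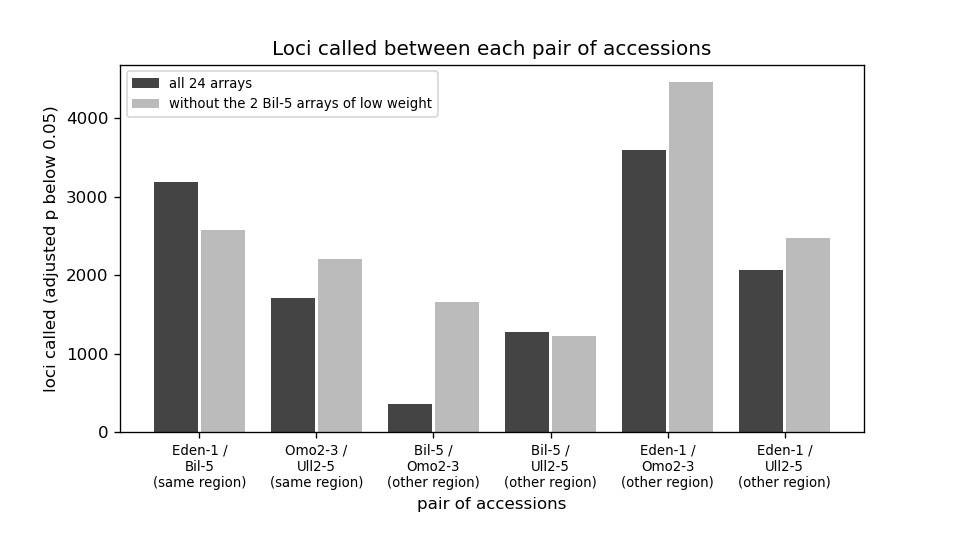
Loci called at an adjusted p below 0.05 for each pair of accessions, with all 24 arrays (dark bars) and without the 2 Bil-5 arrays of lowest weight (light bars), y axis in loci. Bil-5 against Omo2-3 is the shortest dark bar at 354 loci and Bil-5 against Ull2-5 the shortest light bar at 1222; both pairs cross the regions.

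Among the 785 loci, the gap was larger than both within-region differences in 235, 136 with the northern accessions higher and 99 with the southern accessions higher. The 15 loci with the largest gap in each direction are described next; they were selected by the contrast itself, so their differences describe them and are not a further test. All 30 kept their call without the 2 Bil-5 arrays, and 28 kept it with every single array left out; the exceptions are LTP2 and GRP3S. Only 9 of the 30 kept it with each accession left out in turn. On wet arrays alone 7 of the 30 kept it, and on dry arrays alone 18. Without an accession term 28 kept it, and with accession as a random block 3. For these 30 loci the checks cover the call and not the gap. A low signal can come from little transcript or from a sequence that binds the array's probes poorly, and how probes over variable sites were treated is not given in the sources used here, so these cannot be told apart. In whole leaves, fewer cells of a type and less RNA per cell cannot be told apart either.

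KUP9 (AT4G19960), of the KUP family of potassium transporters, had the largest gap of the loci higher in the north. Its signal on the 12 northern arrays ran from 6.31 through a median of 7.12 to 7.73, and on the 12 southern arrays from 5.27 through 5.86 to 6.42. The ranges touch only at their ends: accession means were 7.31 ± 0.37 in Eden-1 and 6.90 ± 0.52 in Bil-5, against 5.84 ± 0.33 in Omo2-3 and 5.89 ± 0.44 in Ull2-5 (SD, n = 6). The difference was 1.24 ± 0.16 (SE), with an adjusted p of 6.25e-05. IRT3, a zinc and iron transporter of the ZIP family, had means of 8.04 and 7.90 in Eden-1 and Bil-5 and of 6.93 and 7.23 in Omo2-3 and Ull2-5, a difference of 0.89 ± 0.21 (adjusted p = 0.0122).

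CRK4, a cysteine-rich receptor-like kinase at the cell surface, was 7.54 ± 0.64 in Eden-1 and 4.54 and 4.46 in the southern accessions. Bil-5 was split: wet replicate 1 read 8.32 and the other 5 arrays lay between 4.37 and 5.37. The difference of CRK4, 2.01 ± 0.30 (adjusted p = 2.90e-04), therefore rests mainly on Eden-1, and the call was lost without that accession. Its gap is set by the Bil-5 mean, which wet replicate 1 raises. That array is kept when the 2 Bil-5 arrays of lowest weight are left out. SR1 (AT5G01820), a kinase of the calcium-regulated CIPK family also listed as CIPK14, was far more even, at 7.92 and 7.90 in the north and 7.22 and 7.17 in the south. MAPKKK14, an upstream kinase of MAP kinase cascades, differed by 0.96 ± 0.18 (adjusted p = 0.00268).

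CIP1, named for its binding to the light-signalling repressor COP1, had nearly equal northern means of 7.95 and 7.98 against 7.24 and 7.31. ELF5A-1, a translation factor, had means of 5.64 and 5.48 against 4.84 and 4.76. The other 8 of the 15 bear no symbol in the gene table. Of them AT2G32140 had the largest difference, 2.19 ± 0.16 (adjusted p = 1.24e-08), but with unlike northern means, 7.76 in Eden-1 and 5.28 in Bil-5, above 4.62 in Omo2-3 and 4.04 in Ull2-5, where it was dim (below the 25th percentile of locus means, 4.39). AT1G28400 was steadier, at 7.93 and 7.84 in the north and 6.95 and 6.33 in the south. AT1G09910 had means of 6.97, 6.67, 5.71 and 6.04 in Eden-1, Bil-5, Omo2-3 and Ull2-5, and AT3G29180 had means of 7.80, 7.92, 7.08 and 7.10 in that order. The northern excess of AT1G73040, AT1G51090, AT5G22860 and AT1G25530 was larger on dry than on wet arrays, from 1.202 to 1.666 against 0.340 to 0.595, though none of the 4 passed the test of that interaction (adjusted p from 0.366 to 0.595).

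Among the loci higher in the south, ChiC (AT4G19810), a class V chitinase that degrades a polymer of fungal walls, ran from 4.23 through a median of 4.61 to 5.59 on the northern arrays and from 5.30 through 6.35 to 7.15 on the southern arrays. Only the ends of the 2 ranges overlapped, and the northern means were almost equal, 4.73 ± 0.22 and 4.74 ± 0.53 against 6.03 ± 0.31 in Omo2-3 and 6.50 ± 0.64 in Ull2-5. The difference was -1.53 ± 0.18 (adjusted p = 9.62e-06). CRK12, another cysteine-rich receptor-like kinase, was lowest in Eden-1 (5.36), then Bil-5 (6.97), Omo2-3 (7.79) and Ull2-5 (8.27). MC2, a metacaspase that restrains cell death, had means of 4.54 and 4.91 in the north against 5.68 and 5.97 in the south.

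AT3G48640 had the largest southern gap, 1.43, and the least uniform northern values. In Eden-1 it was 9.42 ± 0.52, in Omo2-3 10.86 ± 0.47 and in Ull2-5 11.07 ± 0.39, whereas Bil-5 arrays read 10.35, 5.00 and 4.81 when dry and 5.57, 8.77 and 10.65 when wet. Its call was lost without Omo2-3 or without Ull2-5. AT5G63020 was the opposite case, with no overlap between regions: northern arrays ran from 4.14 through 4.53 to 5.16 and southern arrays from 5.58 through 5.97 to 6.53. The difference was -1.47 ± 0.11 (adjusted p = 9.99e-09), and the locus was dim in 1 northern accession, Eden-1.

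LTP2, a lipid transfer protein, was at 6.551 ± 1.342 in Eden-1 and 6.998 ± 1.418 in Bil-5 against 8.11 ± 0.91 and 8.37 ± 0.20. Its adjusted p of 0.0484 passed narrowly, and the call was lost on leaving out any of 20 of the 24 arrays. GRP3S, a glycine-rich protein of the cell wall space, had means of 10.14, 10.03, 11.50 and 11.13, and its call was lost on leaving out any of 12 arrays (adjusted p = 0.0375 with all). MES16, a methylesterase acting in chlorophyll breakdown, was 5.66 and 5.51 in the north and 6.37 and 6.78 in the south. ECT9, of the family of proteins that read methylated adenosine in RNA, was 5.69 and 5.91 against 6.56 and 6.68. GRXC1, a glutaredoxin that reduces disulfides, was 8.12 and 8.33 against 8.97 and 9.01. The remaining loci of the 15, which have no symbol, are AT3G16530, AT5G64870, AT5G25440, AT4G12010 and AT3G21950, with differences from -1.73 to -0.75. AT3G16530 fell by 1.747 on drying over the mean of the 4 accessions (adjusted p = 3.87e-04), and its northern range of 7.29 to 11.87 covered its southern range of 9.04 to 11.77.

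**Figure D2:**
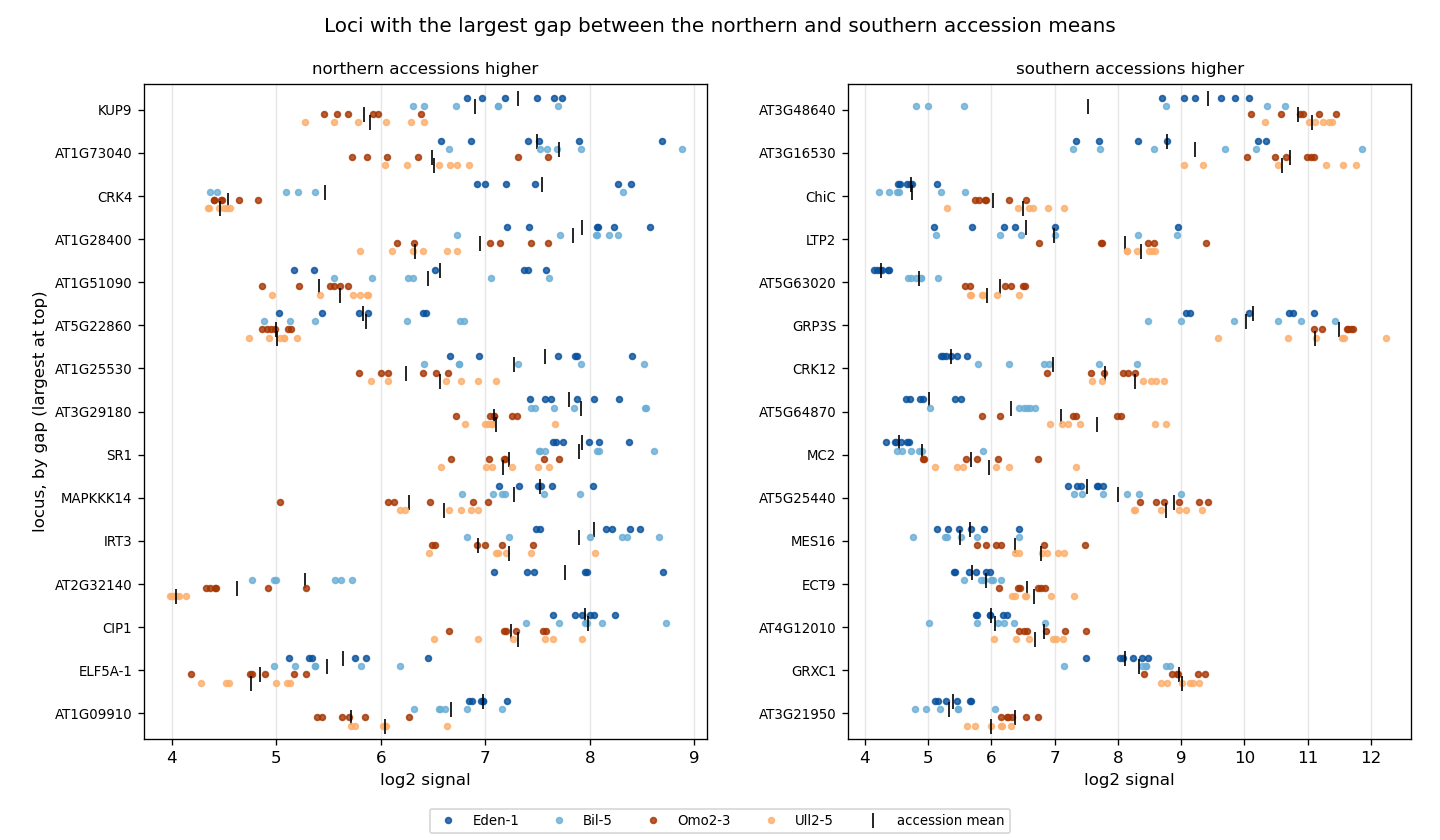
Log2 signal (x axis) of the 15 loci with the largest gap in each direction, 6 arrays per accession as points and the accession mean as a black bar; blue shades mark the northern and red to orange shades the southern accessions. KUP9 and ChiC arrays overlap between regions only at the ends of their ranges, while AT3G48640 spreads from 4.81 to 10.65 over the Bil-5 arrays.

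Arrays of the regions did not overlap in 5 loci, each with 12 values on either side. Northern arrays were all higher in 4 (0.0189% of loci): AT2G25250, AT3G19515, AT4G14385 and AT5G08750, with differences of 0.90 ± 0.11, 0.70 ± 0.12, 0.52 ± 0.08 and 0.34 ± 0.05. Southern arrays were all higher in AT5G63020 alone (0.00473%). A stricter reading asks that each northern accession differ from each southern accession at an adjusted p below 0.05. By it 16 of the 785 loci remained, 10 with the northern accessions higher and 6 with the southern accessions higher, while 13 further loci called in all 4 such pairs were not among the 785. The 10 hold KUP9, PMS1, SLT1, AT3G29180, AT1G09910, AT1G27150, AT2G25250, AT1G32360, AT3G23600 and AT5G08750. PMS1, a DNA mismatch repair protein, had means of 5.33, 5.17, 4.55 and 4.62 in Eden-1, Bil-5, Omo2-3 and Ull2-5. SLT1, named for sodium and lithium tolerance, had means of 7.47, 7.51, 6.99 and 7.01. The 6 are ChiC, AT5G63020, ECT9, AT3G21950, TPR8 and LYK4. LYK4, a LysM receptor-like kinase that takes part in sensing chitin, had means of 4.73 and 4.77 in the north and 5.37 and 5.50 in the south, a difference of -0.68 ± 0.09 (adjusted p = 6.88e-05).

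Family counts were made after values were seen. Of 35 loci whose symbol is CRK and a number, limma called 7 higher in the north (CRK4, CRK14, CRK16, CRK18, CRK23, CRK27 and CRK34) and 2 higher in the south (CRK12 and CRK41), beside 3.2% and 2.35% of all loci. CRK4 and CRK14 were also separated in the first direction, and CRK12 and CRK41 in the second, beside 2.13% and 1.58% of all loci. Both such loci among 7 ARR response regulators of cytokinin signalling, ARR7 and ARR9, were higher in the south. Among 68 NAC factors 2 were separated and called higher in the north, and among 58 WRKY factors 1, with 0 of either higher in the south. Without regard to separation, limma called 3 NAC and 2 WRKY factors higher in the north and 1 of each in the south.

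Some of the 785 loci lay next to each other on the chromosome. In the order of locus numbers 38 pairs of neighbouring measured loci were both among them, 28 in the same direction, and 74 of the 785 (9.43%) had such a neighbour, beside 7.21% of all loci measured that lie next to 1 of the 785. In 3 of the 28 pairs the values agree within 0.002 log2 units on every array, in 2 of them exactly, so that each such pair counts as 1 measurement. The longest run held 4 loci: ChiC, AT4G19820 and AT4G19830 were lower in the north, with differences of -1.53, -0.30 and -0.55, and PP2-A1, a phloem lectin, was higher there by 0.38 ± 0.11 (adjusted p = 0.0415). AT5G63020 and GRXC1 are also neighbours, as are ECT9 and LTPG1, a lipid transfer protein anchored to the membrane. Over the 5 nuclear chromosomes, the share of loci among the 785 ran from 3.11% on chromosome 2 to 3.99% on chromosome 5.

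Of 21 flowering repressors and 19 promoters measured, 1 each was separated and called, beside 3.71% of all loci. The same share stands beside such counts in the lists below. FLC, the repressor that winter cold silences, did not follow latitude. It was 11.01 ± 0.15 in Eden-1, 10.85 ± 0.21 in Ull2-5, 9.78 ± 0.22 in Omo2-3 and 6.81 ± 2.12 in Bil-5, so the 2 northern accessions held the highest and the lowest mean. Bil-5 arrays read 9.13, 8.07 and 4.26 when dry and 4.28, 6.73 and 8.39 when wet; the region difference was -1.40 ± 0.43 (adjusted p = 0.0577), and Eden-1 exceeded Bil-5 by 4.198 ± 0.603 (adjusted p = 5.78e-05). SOC1 (AGL20), the flowering promoter that FLC represses, read highest on the same 2 Bil-5 arrays where FLC was lowest, 7.92 on dry replicate 3 and 7.77 on wet replicate 1, and 5.62 to 6.12 on the other 4. FRI, the activator of FLC, and FT, the mobile flowering signal, had accession means from 4.53 to 4.60 and from 4.07 to 4.17. FT was thus dim in all 4 accessions. RAV2, also known as TEM2, a repressor of FT, was higher in the south (-0.51 ± 0.12, adjusted p = 0.0182), with means of 10.07, 10.67, 10.74 and 11.01. SPL4, a promoter of the floral transition, was 6.95 in Eden-1 and 5.77 in Bil-5 against 5.33 and 5.33, a difference of 1.03 ± 0.20 (adjusted p = 0.00378), and lost its call without Eden-1. SVP, MAF4 and MAF5, further repressors of the same MADS-box class, did not pass, and MAF4 and MAF5 were dim in all 4 accessions. No core clock gene of 15 measured was called by limma, and 0 had an unadjusted p below 0.05. Among 22 photoreceptor and light-signalling genes PIF3 (0.44 ± 0.07, adjusted p = 4.09e-04) and PHYB (0.44 ± 0.13, adjusted p = 0.0413) were separated and called, both higher in the north. Without the 2 Bil-5 arrays limma called 5 of the 22, adding FAR1 (0.379, adjusted p = 0.00260), PHYC (0.295, adjusted p = 0.0343) and PIF1 (-0.311, adjusted p = 0.0336), where 12.2% of all loci were called. The repressor and promoter lists then had 2 calls each, with TOE1 and LD the added genes.

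**Figure D3:**
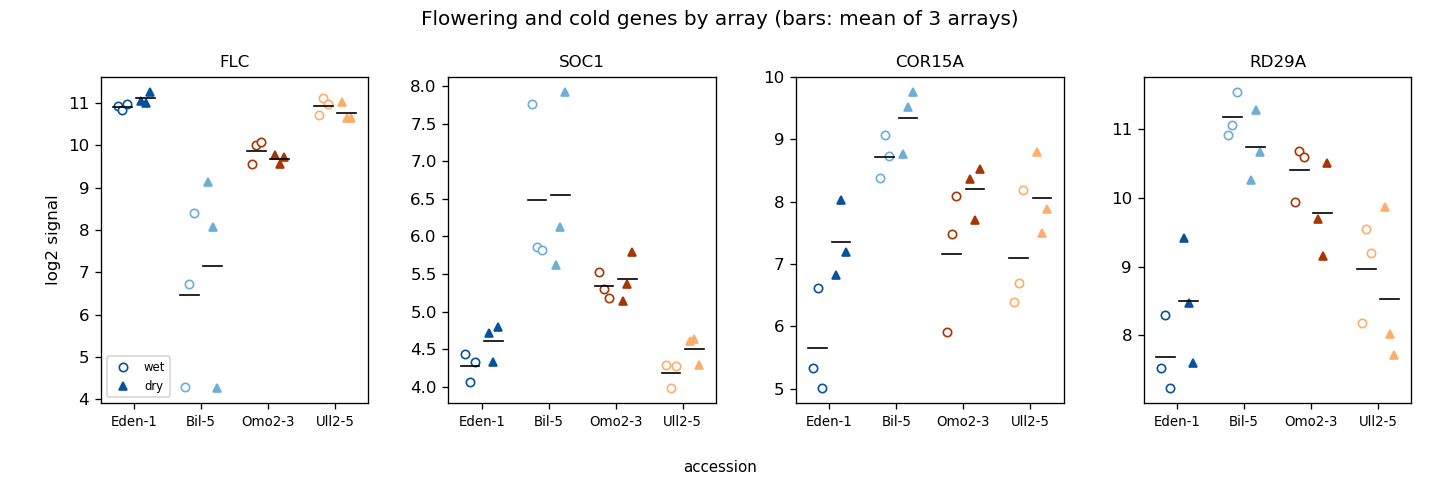
Log2 signal (y axis) of FLC, SOC1, COR15A and RD29A on each array, by accession; open circles are wet, filled triangles dry, bars the mean of 3 arrays. Bil-5 has the lowest FLC and the highest SOC1, COR15A and RD29A means, with the Eden-1 mean of COR15A and RD29A the lowest.

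Cold response genes set the 2 northern accessions apart from each other. Of 23 measured, 12 were higher in Bil-5 than in Eden-1 and 0 the other way by limma (13 and 0 at an unadjusted p below 0.05), where 6.63% and 8.39% of all loci were called in those directions. The first count is 10 without the 2 Bil-5 arrays (6.05% of all loci). Northern means lay outside both southern means in 11 of the 23, beside 19.1% of all loci. CBF1, CBF2 and CBF3, the transcription factors at the head of the response, had Eden-1 minus Bil-5 differences of -1.858 ± 0.194, -1.263 ± 0.145 and -1.261 ± 0.251 (adjusted p = 1.24e-06, 4.196e-06 and 0.00147). The targets named next were likewise lowest in Eden-1 and highest in Bil-5. COR15A, a chloroplast protein that protects membranes, had means of 6.50 ± 1.14 in Eden-1, 9.04 ± 0.52 in Bil-5, 7.68 ± 0.95 in Omo2-3 and 7.58 ± 0.91 in Ull2-5. All 6 Bil-5 arrays (8.38 to 9.76) were above all 6 Eden-1 arrays (5.00 to 8.03), and the southern arrays lay across both.

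RD29A, in the table as LTI78, had means of 8.09, 10.96, 10.10 and 8.75 in Eden-1, Bil-5, Omo2-3 and Ull2-5, and GOLS3, an enzyme of raffinose synthesis, had means of 5.08, 7.10, 5.93 and 5.49. COR47, a dehydrin, was 10.28 in Eden-1, 11.72 in Bil-5, 11.47 in Omo2-3 and 11.30 in Ull2-5. None of these passed the test between regions (adjusted p from 0.142 to 0.877). COR15B differed by -1.393 ± 0.355 between Eden-1 and Bil-5 (adjusted p = 0.00968), and by -1.150 without the 2 Bil-5 arrays (adjusted p = 0.0613). The only cold gene separated and called between regions was SFR2, a galactolipid enzyme needed to survive freezing, higher in the north by 0.31 ± 0.09 (adjusted p = 0.0454), and 18 of the 24 single-array omissions ended that call, as did omission of the 2 Bil-5 arrays (0.25, adjusted p = 0.0596). OST1, a kinase of abscisic acid and cold signalling, was called higher in the north (0.38 ± 0.11, adjusted p = 0.0352) through Bil-5 (6.86), with Eden-1 (6.00) between the southern means of 6.18 and 5.93.

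Salicylic acid and systemic defence genes showed the reverse order of the northern pair. Of 22 measured, 18 were higher in Eden-1 than in Bil-5 and 0 lower by limma (20 and 1 at an unadjusted p below 0.05), beside 8.39% and 6.63% of all loci. The first count is 14 without the 2 Bil-5 arrays (6.09% of all loci). Northern means lay outside both southern means in 18, beside 19.1% of all loci, and the median of the Eden-1 minus Bil-5 differences was 1.51, against -0.005 over all loci. Between regions 2 were called, NIMIN1 and WRKY38, and neither was separated; without the 2 Bil-5 arrays 3 were called, with ACD6 added (0.849, adjusted p = 0.043). PR1, the classic marker of the pathway, was between 13.20 and 13.78 on the 6 Eden-1 arrays, 6.08 to 11.67 in Bil-5, 8.91 to 11.61 in Omo2-3 and 8.14 to 11.20 in Ull2-5. No array of the other 3 accessions reached the Eden-1 range, and Eden-1 exceeded Bil-5 by 5.24 ± 0.65 (adjusted p = 9.52e-06). PR2 and PR5, which encode a glucanase and a thaumatin-like protein, were higher in Eden-1 than in Bil-5 by 4.93 ± 0.50 and 4.47 ± 0.59, with the southern means between them.

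Genes of salicylic acid production and signalling stood the same way. ICS1, the main synthesis enzyme, was 8.03 ± 0.91 in Eden-1, 6.27 ± 0.19 in Bil-5, 6.37 ± 0.63 in Omo2-3 and 7.20 ± 1.01 in Ull2-5. PBS3, which acts after it, was 6.74 in Eden-1 and from 4.35 to 4.81 in the other 3, dim in Bil-5. WRKY38, a transcription factor induced through NPR1, was 6.88 in Eden-1 and from 4.07 to 4.64 elsewhere, dim in Bil-5 and Ull2-5. Its northern excess of 1.04 ± 0.20 (adjusted p = 0.00272) turned to -0.37 without Eden-1. NIMIN1, an inhibitor that binds NPR1, turned likewise, from 0.78 to -0.34. Senescence markers did not share this order as a list: the median Eden-1 minus Bil-5 difference of 8 was 0.008, and 1, SAG13, was called. SAG13 was 8.77 in Eden-1, 5.15 in Bil-5, 5.42 in Omo2-3 and 6.45 in Ull2-5. SAG13 thus moved with the defence genes, and its part, like that of the Bil-5 arrays, was not tested.

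**Figure D4:**
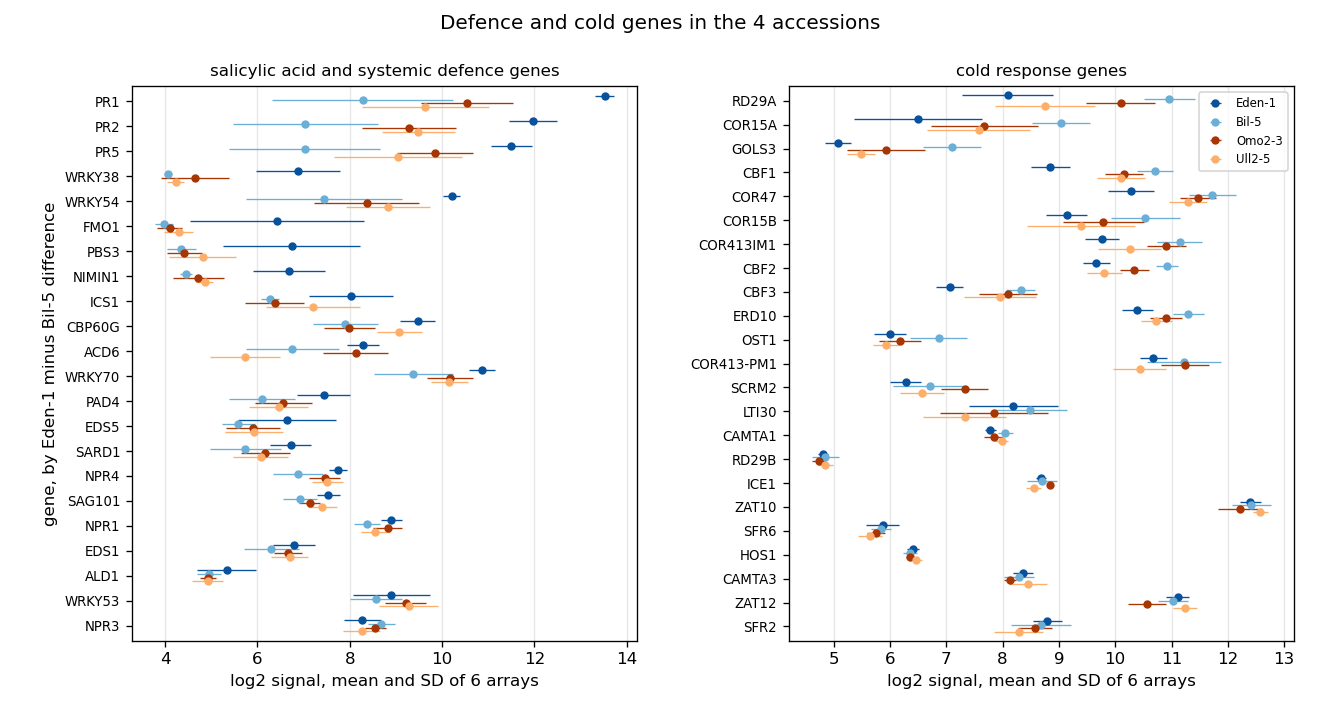
Accession means (points) and SD over 6 arrays (lines) of the log2 signal for 22 defence genes and 23 cold genes, each panel ordered by the Eden-1 minus Bil-5 difference. Eden-1 is to the right of Bil-5 for the upper defence genes (PR1 13.52 against 8.28) and to the left for the upper cold genes (RD29A 8.09 against 10.96), with both southern means between them in these examples.

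Other defence genes gave scattered calls. ADR1, a helper immune receptor, was the only one of 25 immune receptors separated and called, with means of 7.44, 6.51, 6.34 and 5.31 in Eden-1, Bil-5, Omo2-3 and Ull2-5 (1.16 ± 0.16, adjusted p = 9.81e-05). WRR4, a receptor for white rust, was 5.89 in Eden-1 and from 8.70 to 9.44 in the other 3 accessions, a low reading in 1 accession that made a region call of -1.62 ± 0.22 (adjusted p = 8.70e-05). RPM1 and RLM3 were also called without separation. In the jasmonate and ethylene list of 26, PR3 (HCHIB, a basic chitinase) and JAZ1, a repressor of jasmonate signalling, were called higher in the north, and neither was separated: PR3 was 10.83, 7.29, 8.60 and 5.41 in the same order of accessions. Without the 2 Bil-5 arrays JAR1, which activates jasmonate by joining it to isoleucine (0.386, adjusted p = 0.00743), and MYC2, a transcription factor of the pathway (0.484, adjusted p = 0.0320), were called too, as was the immune receptor LAZ5 (0.407, adjusted p = 0.0321).

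Photosynthetic genes were separated more often than called. Of 13 light-harvesting and Rubisco-related genes 8 had both northern means below both southern means, as did all 4 mesophyll markers measured, beside 19% of all loci. Their median differences were -0.19 and -0.32 (-0.01 over all loci), kept their sign under quantile normalization and median centring, and were -0.30 and -0.50 without the 2 Bil-5 arrays. The mesophyll list overlapped between regions, with its mean level from 9.56 to 12.38 on northern and from 9.84 to 12.33 on southern arrays. The one called gene of both lists, PSBO2, a subunit of the oxygen-evolving complex, was 9.54 in Eden-1, 10.91 in Bil-5, 11.60 in Omo2-3 and 10.77 in Ull2-5, which is not separated. LHCB5 and LHCA1, antenna proteins of photosystems II and I, differed by -0.19 ± 0.08 and -0.26 ± 0.13 (adjusted p = 0.184 and 0.254). CA1, a chloroplast carbonic anhydrase, had the widest spread, with means of 9.49 ± 1.40, 8.71 ± 2.43, 11.53 ± 0.88 and 10.18 ± 1.56, and did not pass (adjusted p = 0.131). Omission of the 2 Bil-5 arrays made these 3 pass: LHCB5 was then -0.267 (adjusted p = 0.0215), LHCA1 -0.390 (adjusted p = 0.0253) and CA1 -2.421 (adjusted p = 0.01003), and 4 of the 13 and 2 of the 4 genes were called, beside 12.2% of all loci. Of 16 photoprotection genes OHP2, which helps assemble photosystem II, was separated and called, at 8.49 and 8.65 in the north and 9.20 and 9.14 in the south (adjusted p = 0.0278), and OHP1 (-0.905, adjusted p = 0.00848) and STN8 (-0.544, adjusted p = 0.0151) were called without the 2 Bil-5 arrays.

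Of 20 aliphatic glucosinolate genes measured, 1 was separated and called higher in the north and 1 higher in the south. Higher in the north were also 1 of 6 glucosinolate breakdown, 1 of 17 indole and camalexin and 1 of 17 flavonol and anthocyanin genes. Beside these stand 2.13% and 1.58% of all loci in the 2 directions. In the aliphatic glucosinolate pathway, which makes mustard oils from methionine, MYB29, an activator, was higher in the north by 0.24 ± 0.06 (adjusted p = 0.0162), and BCAT3, an aminotransferase of chain elongation, was higher in the south (-0.27 ± 0.08, adjusted p = 0.0368), a call lost without the 2 Bil-5 arrays (adjusted p = 0.0524). NSP5, which diverts glucosinolate breakdown to nitriles, had means of 7.27, 7.15, 7.06 and 6.19, and ESM1, which favours isothiocyanates, was low in Eden-1 alone, at 5.79 against 7.79 to 8.38. UGT74B1, which adds glucose in glucosinolate synthesis, was 8.73 and 7.93 in the north and 7.46 and 7.69 in the south (0.75 ± 0.16, adjusted p = 0.00771). UGT78D1, which adds rhamnose to flavonols, was 4.94 and 4.77 against 4.24 and 3.90, the last 2 dim. Among 21 abscisic acid and drought markers HB-7, a homeodomain factor that dampens abscisic acid signalling, was higher in the north by 0.60 ± 0.15 (adjusted p = 0.0178).

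Separated and called were 2 of 31 ion and metal genes, 2 of 9 trichome genes and 1 of 10 stomatal genes, beside 3.71% of all loci. NRAMP6, a metal transporter, had means of 5.76, 6.01, 5.25 and 5.23. Its difference was 0.09 on wet and 1.198 on dry arrays, an interaction of 1.107 ± 0.248 that did not pass (adjusted p = 0.250). NHX2, a vacuolar sodium and potassium exchanger, had means of 6.90, 6.88, 6.26 and 6.67, while HKT1, a sodium transporter, did not pass (adjusted p = 0.595). ETC2, an inhibitor of trichome formation that varies among accessions, was 6.38 in Eden-1, 4.56 in Bil-5, 3.95 in Omo2-3 and 4.03 in Ull2-5, the last 2 dim. Its difference was 1.48 ± 0.19 (adjusted p = 4.70e-05), with a call that was lost without Eden-1. GIS, a promoter of trichomes on the stem, and EPF2, a peptide that limits stomata, were higher in the south, with differences of -0.34 and -0.25, and EPF2 was dim in both northern accessions and in Ull2-5. GL1 (MYB0) read between 3.82 and 3.95 in all 4 and was dim in each. Of 28 genes of DNA methylation and small RNA silencing limma called 0, with 7 at an unadjusted p below 0.05, and without the 2 Bil-5 arrays it called 2, the methyltransferase CMT3 (-0.255, adjusted p = 0.0360) and the nuclease DCL3 (0.210, adjusted p = 0.0376). Of 12 root, 11 dividing cell, 8 flower and pollen and 10 seed markers limma called 0, with 4, 0, 2 and 1 at an unadjusted p below 0.05. Without the 2 Bil-5 arrays 1 root marker, the nitrate transporter NRT2.1, was called (-0.212, adjusted p = 0.0429). In the last 2 lists 7 of 8 and 9 of 10 markers were dim. QQS, an orphan gene of starch regulation, met the rule only formally: it was 9.41 ± 0.22 in Eden-1 and 4.54, 4.44 and 4.53 in Bil-5, Omo2-3 and Ull2-5, a gap of 0.01. Over the 26 lists, 17 had more calls without the 2 Bil-5 arrays and 9 the same number. In these lists 27 genes gained a call, and SFR2 and BCAT3 lost theirs. Over all loci, calls rose from 1176 to 2581 (12.2%) by the same omission.

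Measures that the rule does not name were set beside the members. Tamm-2, Got-22 and Ag-0, accessions of the same series that belong to neither group, lay on the northern side of the midpoint between regions in 46.4%, 56.7% and 49.8% of the 785 loci, against 42.4%, 52.1% and 49% of all loci. KUP9 was 7.87, 6.69 and 7.38 in these 3, near or above the northern means, and AT5G63020 was 6.26, 5.86 and 5.96, near the southern means. ChiC was 5.33, 4.83 and 4.82, nearer the north, so members did not sort the other accessions 1 way. Of the 451 loci higher in the north 45 rose and 35 fell on drying, and of the 334 higher in the south 25 rose and 40 fell, where 7.32% of all loci rose and 6.32% fell over the mean of the 4 accessions. The members were brighter than average, with 7.39% below the 25th percentile of locus means.

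The drying change differed between regions in 3 loci (0.0142%) at an adjusted p below 0.05, with 1954 under an unadjusted p of 0.05. AT5G24570 was lower in dry than in wet pots in the north and higher in the south, with wet and dry means of 7.97 and 7.31 in Eden-1, 9.26 and 8.30 in Bil-5, 9.16 and 9.60 in Omo2-3 and 6.67 and 7.03 in Ull2-5 (n = 3 each). Every dry array lay below every wet array in the 2 northern accessions and above every wet array in Omo2-3, while in Ull2-5 the lowest dry value, 6.82, was just below the highest wet value, 6.85. The interaction was -1.21 ± 0.15 (adjusted p = 0.00719), and it held with each of the 24 arrays left out. NUDT6 (AT2G04450), a Nudix hydrolase, had an interaction of -1.63 ± 0.24 (adjusted p = 0.0259) that came mostly from Eden-1, 8.39 ± 0.17 wet and 6.07 ± 0.52 dry; Bil-5 moved by -0.41, Omo2-3 by 0.62 and Ull2-5 by -0.09. AT5G13200 had an interaction of 1.12 ± 0.17 (adjusted p = 0.0330), with changes of 0.74 in Eden-1, 0.13 in Bil-5, -0.64 in Omo2-3 and -0.74 in Ull2-5. NUDT6 kept its call in 12 and AT5G13200 in 8 of the 24 omissions, the highest adjusted p being 0.0861 and 0.104. All 3 loci, AT5G24570 included, lost their call with all 41 arrays in the fit, without Omo2-3 and without Ull2-5.

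**Figure D5:**
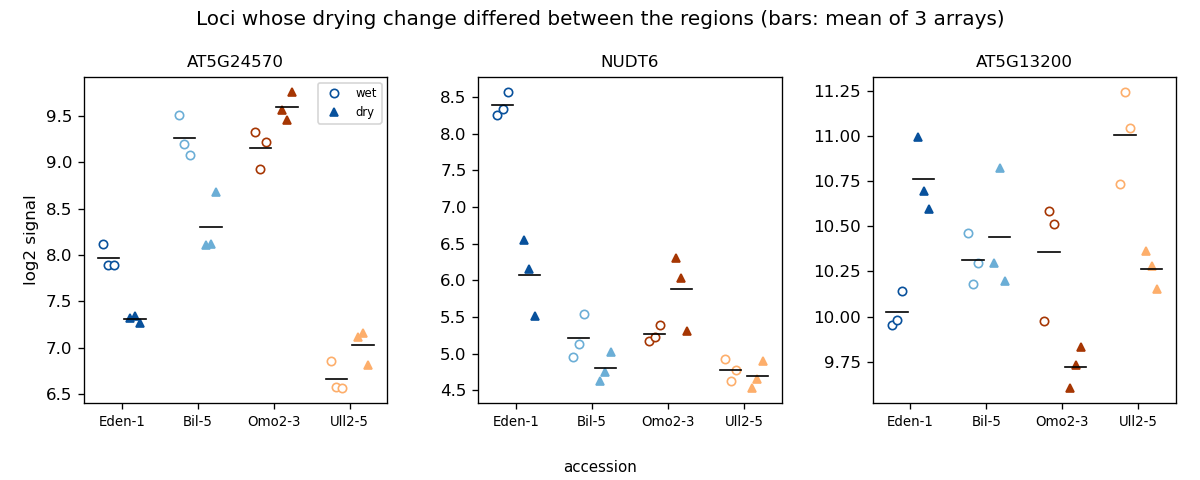
Log2 signal (y axis) of the 3 loci called for the region by soil water interaction, by accession; open circles are wet, filled triangles dry, bars the mean of 3 arrays. The AT5G24570 mean is lower dry than wet in Eden-1 and Bil-5 and not in Omo2-3 or Ull2-5, and the NUDT6 mean differs most in Eden-1, 8.39 wet and 6.07 dry.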

How the data were processed

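Leaf RNA of 4 accessions was read on 24 arrays; the authors deposited 1 table of log2 signal per locus for all 41 arrays, whose making involved RMA and MAS5, per the submitters' processing notes (versions not listed). No source used here states the probe masking or genome build, so no coordinates or sequences are printed. Values were used as deposited. limma 3.58.1 (R 4.3.3) fitted a mean per accession plus soil water; the contrast was the mean of Eden-1 and Bil-5 minus that of Omo2-3 and Ull2-5, with Benjamini-Hochberg adjustment over all 21164 loci and a threshold of 0.05, two-sided. The interaction used 1 mean per accession and soil water level. The region, interaction and accession fits were run on simulated data with known region differences. Those data held no spread between accessions of a region and no planted interaction, so they do not speak to either. The number of arrays limits precision.

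Named loci are the 15 largest gaps per direction, up to 8 interaction loci, up to 4 per gene list with the smallest p and a fixed set (FLC to QQS). Further examples of Eden-1 against Bil-5 differences, and loci of the non-overlapping and family counts, were picked after values were seen. Members and lists were chosen with earlier results of these data known. Symbols come from a RefSeq gene table that matched 20972 loci; 40 loci share their values with another locus on every array. MAF2, MAF3 and KIN1 were not among the loci measured. Where separate plants are not stated, p-values measure the spread between arrays. Alternatives are in the closing section.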

Additional observations from a re-analysis of the deposited data

Results flagged for a closer look

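The drying change differed between northern and southern accessions, by the interaction test itself, in 3 loci. The northern minus southern difference in drying change was -1.21 in AT5G24570, -1.63 in NUDT6 (AT2G04450) and 1.12 in AT5G13200. Without the 2 Bil-5 arrays of lowest weight it was -1.32 (adjusted p = 0.00101), -1.70 (adjusted p = 0.0167) and 1.15 (adjusted p = 0.0197). All 3 calls were lost with all 41 arrays in the fit, without Omo2-3 and without Ull2-5. The spread between the 2 accessions of a region does not enter these tests.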

How the results depend on the processing

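The 1176 called and 785 separated and called loci stayed within 1.5 times those counts under quantile normalization, median centring, a filter on the dimmest 25% of loci, a trended robust prior, all 41 arrays and a mean per accession and soil water level. The replicate block gave 1262, 839 and 4 interaction loci; deviations of same-numbered arrays had a median correlation of 0.077 (from -0.55 to 0.61) and those of other arrays -0.041, and not every pair exceeded 0.1, so the numbers were not taken as a pairing. Array weights gave 2652 and 1725, 113 interaction loci, 3106 for Eden-1 against Ull2-5 and 1807 for Bil-5 against Omo2-3. Without the 2 Bil-5 arrays the counts were 2581, 2031, 44 and, for Bil-5 against Omo2-3, 1659. Wet arrays alone gave 115 and 61, and dry arrays alone 635 and 495. Both fits used fewer arrays than the main fit, but the same number as each other. Why they differ was not tested. A fit with no accession term gave counts of 319 and 318, and a random block 3 and 3, where a wider error enters by construction. Without Eden-1 they were 457, 434 and 8, and without Bil-5 3887, 3799 and 8; the interaction gave 0 without Omo2-3, 0 without Ull2-5, 0 with all 41 arrays and 1 at 0.01. A threshold of 0.01 left 459 and 305, a difference of at least 1 log2 unit 82 and 40, separation within dry and within wet arrays 507, and arrays that do not overlap 5. With single arrays left out, called loci ranged from 898 to 1632, separated and called loci from 608 to 1195, Bil-5 against Omo2-3 from 114 (without Omo2-3 dry replicate 2) to 619 (without Bil-5 wet replicate 2) and interaction loci from 1 to 113; the highest interaction count came without Bil-5 dry replicate 3. The alternatives of the pair, defence and cold counts were chosen after seeing the data. Of 785 loci, 771 stayed called with array weights. The cause of these shifts was not tested. Directions turned in single loci. Without Eden-1, NIMIN1 went to -0.34, NUDT6 to -0.15, SAG13 to -0.79, CAX3 to -0.29 and WRKY38 to -0.37. Without Bil-5, FLC went to 0.70, CRY2 to -0.41, COR15A to -1.13, SOC1 to -0.42, CBF2 to -0.41, OST1 to -0.051, RD29A to -1.336 and AT5G24570 to -0.47. AT5G24570 was -0.51 on dry arrays and -1.17 without Ull2-5, and without Omo2-3 JAZ1 was -0.24 and RPM1 -0.053.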

Other observations

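Other gene groups set Eden-1 and Bil-5 apart, in comparisons picked after the values were seen. Of 17 genes of indole glucosinolates and camalexin, the main antimicrobial compound of the leaf, 7 were higher in Eden-1 than in Bil-5 and 1 lower, beside 8.39% and 6.63% of all loci. CYP71A13 and PAD3, steps of camalexin synthesis, were higher by 3.16 ± 0.54 (adjusted p = 3.59e-04) and 3.03 ± 0.55 (adjusted p = 6.21e-04), and CYP79B2, which opens the pathway from tryptophan, by 2.33 ± 0.46 (adjusted p = 0.00144). Both southern accessions lay between the northern accessions for all 3, Omo2-3 at 4.652, 6.876 and 7.146 and Ull2-5 at 5.969, 8.061 and 7.999. Only UGT74B1 of this list was separated and called between regions.

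Of 22 photoreceptor and light-signalling genes, 8 were higher in Bil-5 and 1, PHYD, in Eden-1, beside 6.63% and 8.39% of all loci. PHOT1, a blue-light receptor for growth towards light, was 8.43 ± 0.57 in Eden-1, 9.88 ± 0.43 in Bil-5, 9.51 ± 0.31 in Omo2-3 and 8.65 ± 0.59 in Ull2-5. CRY2, a cryptochrome, was lowest in Eden-1 (9.95) and highest in Bil-5 (10.78), and UVR8, the ultraviolet receptor, was 8.86 and 9.57 in these accessions. None of the 3 passed the test between regions (adjusted p from 0.688 to 0.965).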
